A study of Mus musculus with 4 samples.

Results

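The cytosolic ribosomal protein genes were examined in liver from wild type mice and from mice that lack the Cyp3a gene cluster (Cyp3a-/-). The members were all non-control probes whose RefSeq transcript accession maps to a symbol beginning with Rpl or Rps and a digit, to an Rplp symbol or to Rpsa, with the Rps6k kinases (10 genes) and the pseudogene-type symbols (3 genes) left out. This gave 176 of 39429 probes, which stand for 88 genes. Total RNA of 2 wild type and 2 Cyp3a-/- livers was labelled with Cy3, and each liver was measured on 1 Agilent array of 1 colour. The sample labels give the tissue, the genotype and a replicate number, and each replicate is taken here as the liver of a separate animal. The genotypes as labelled are wild type and Cyp3a-/-, with no treatment named for either. Sex, age, strain and feeding state are not given in the sources used here, nor is it stated how the deletion was made or whether the wild type mice were littermates.

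The ribosome is built from a small subunit, which reads the messenger RNA, and a large subunit, which joins the amino acids, and each holds its own set of ribosomal proteins around a ribosomal RNA core. The genes of these proteins are transcribed in every cell type, and their mRNAs typically begin with a short run of pyrimidines, the 5′ terminal oligopyrimidine (TOP) motif, through which mTOR signalling and the protein LARP1 control their translation. Hepatocytes hold many ribosomes because they make most of the plasma proteins.

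The deletion was seen directly in the arrays. Signals below are on a log2 scale relative to the 75th percentile of the same array, and values are given for liver 1 and then liver 2 of a genotype. Cyp3a11, a main Cyp3a enzyme of mouse liver, stood at 7.94 and 8.09 in the wild type livers and at -6.98 and -6.93 in the Cyp3a-/- livers (limma, adjusted p = 1.37e-05). On each array 54.4% to 56.4% of probes exceeded background clearly, and 0 spots were saturated. The wild type livers share slide 1, while Cyp3a-/- liver 1 lies on slide 2 and liver 2 on slide 3, so a difference between slide 1 and the others cannot be told apart from genotype. Hepatocyte markers were present on every array (summed linear signal of 9 of 9 markers, in units of the 75th percentile, 3100 to 3540 in wild type and 3090 to 3570 in Cyp3a-/- livers).

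Of the 88 genes, 85 had a probe that cleared background on both arrays of 1 genotype or of both, and these entered the fit. All 85 were well above background on all 4 arrays, so none entered through only 1 genotype. The other 3, Rpl3l, Rpl10l and Rpl39l, are paralogues known from muscle (Rpl3l) or testis (Rpl10l and Rpl39l), and they were not well above background on any array. The fitted genes comprised 42 proteins of the large subunit, 3 of its stalk, 31 of the small subunit, and 9 paralogues or other symbols that the rule takes in. One of these, Rps19bp1, encodes a protein that binds Rps19 and is not itself a ribosomal protein. Fau and Rack1, which also supply parts of the ribosome, carry other names and are described with the related genes.

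Ribosomal protein genes gave slightly higher signals in the Cyp3a-/- livers as a group, and none of them passed the test. With each gene represented by its brightest probe, 0 of 85 had an adjusted p under 0.05 (limma, Benjamini-Hochberg over all 17406 features), against 0.276% of all features. At an unadjusted p under 0.05, 1 gene, Rps7, was higher in Cyp3a-/- livers and 0 were lower, where 4.6% of all features were higher and 5.42% lower. The lowest adjusted p among the members was 0.499. Fitted log2 fold changes (Cyp3a-/- minus wild type) ran from -0.24 for Rps19bp1 to 0.83 for Rps21, with a median of 0.21 and the middle of the genes between 0.16 and 0.32. The median over all features was 0.0099. A fold change above 0 was fitted for 81 of 85 members, against 51.4% of all features. Of the 85, 77 lay between 0 and 0.5, 4 lay above 0.5, 4 lay below 0, and 0 differed by more than 1 on the log2 scale. Standard errors were 0.17 to 0.45, with a median of 0.18, so a typical member differed by little more than its own error.

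Member genes behaved alike between livers. The median member signal was 6.28 and 6.32 in the wild type livers and 6.52 and 6.56 in the Cyp3a-/- livers (6.30 ± 0.033 and 6.54 ± 0.028, SD, n = 2). Both Cyp3a-/- livers were above both wild type livers for 65 of 85 genes, against 22.5% of all features, and both were below for 0, against 20.2% of all features. The remaining 20 genes overlapped between genotypes: Rpl3, Rpl8, Rpl14, Rpl15, Rpl18, Rpl19, Rpl24, Rpl28, Rpl29, Rpl36, Rpl41, Rplp0, Rps2, Rps3, Rps13, Rps15, Rps19bp1, Rps23, Rps28 and Rps29. The highest array was Cyp3a-/- liver 2 for 56 genes, Cyp3a-/- liver 1 for 27, and wild type liver 2 for 2. The lowest was wild type liver 2 for 48 genes, wild type liver 1 for 25 and Cyp3a-/- liver 1 for 12. Livers of one genotype differed less for these genes than over all features. The median absolute difference was 0.097 between the wild type livers and 0.14 between the Cyp3a-/- livers, against 0.20 and 0.25 over all features. The members are bright, with a median rank at percentile 96.4 to 96.7 of the features on each array. Features of like brightness were not compared, so the smaller difference is not shown to be particular to the members. In bulk tissue, fewer cells of a type and less RNA per cell cannot be told apart. With 2 livers against 2, an exact permutation test of a single value cannot give a 2-sided p below 0.333.

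**Figure D1:**
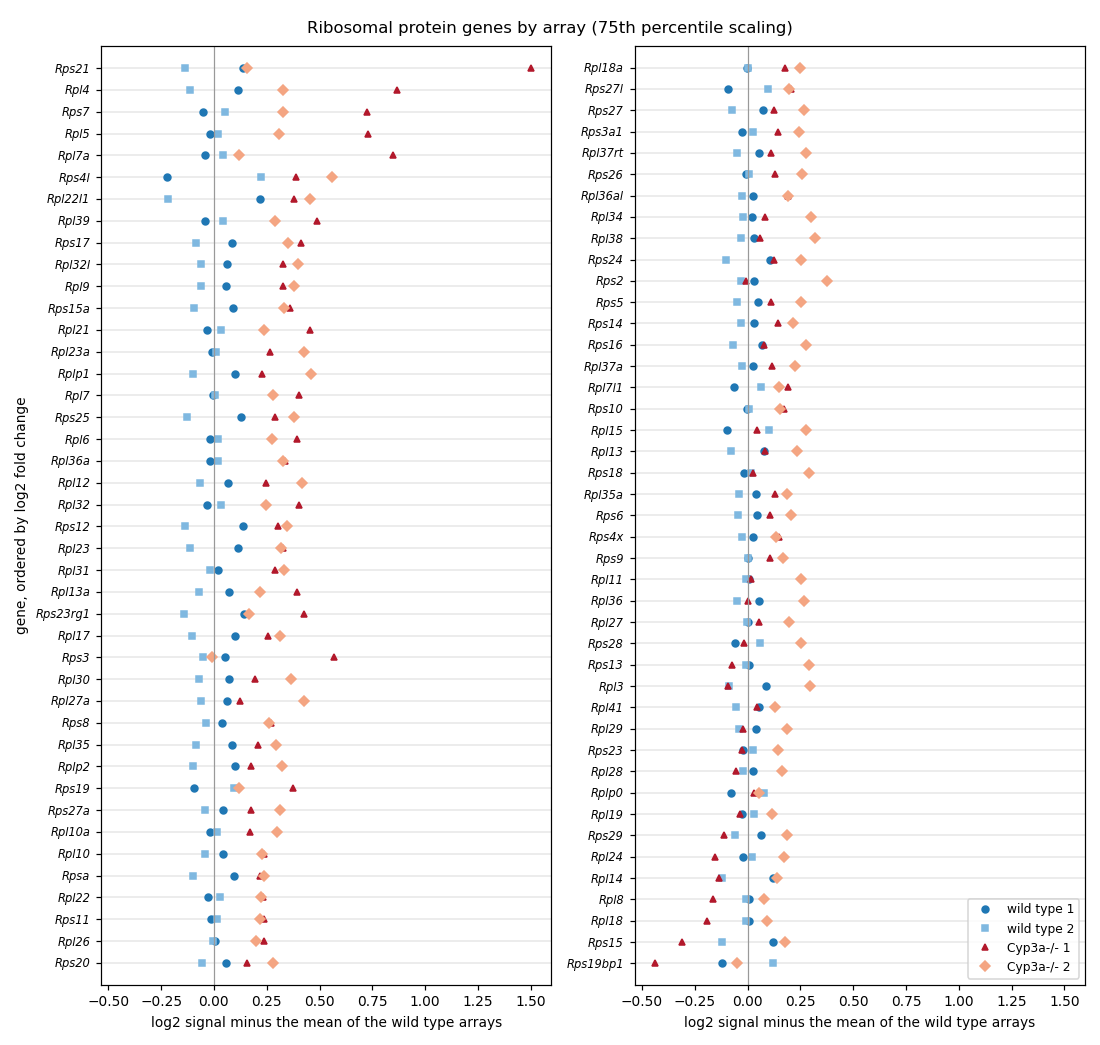
Signal of each of the 85 fitted ribosomal protein genes on each array, as the log2 difference from the mean of the 2 wild type arrays (x axis), 1 row per gene ordered by fitted log2 fold change at 75th percentile scaling. Most Cyp3a-/- points lie to the right of 0 by less than 0.5, and Rps21 has 1 distant point, Cyp3a-/- liver 1. After quantile scaling, 54 of the 85 fold changes remain above 0.

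Most of this shift was absent after another scaling. Quantile scaling gives every array the same distribution of values. Under it the member median was 0.037, the median over all features -0.016, and 54 of 85 members had a fold change above 0 (47.7% of all features). Both Cyp3a-/- livers were then above both wild type livers for 27 genes (19.3% of all features) and below them for 13 (23% of all features), and 0 were called (0.23% of all features) with 0 at an unadjusted p under 0.05. The 13 were Rpl8, Rpl18, Rpl19, Rpl24, Rpl27, Rpl29, Rpl41, Rplp0, Rps9, Rps10, Rps19bp1, Rps23 and Rps29.

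Bright features in general had the same tendency. Among features other than the members, the median fold change at 75th percentile scaling was -0.040 where the mean signal was at or below 0, and 0.15 where it was above 6. In the brightest class, above 6, 78.7% of 757 other features had a fold change above 0 and 48% had both Cyp3a-/- livers above both wild type livers. The 56 members in that class had a median of 0.19, 55 were above 0, and 43 had both Cyp3a-/- livers higher. Quantile scaling took the 2 medians to 0.0073 for the members and -0.021 for the other features, and 10 members were then higher and 11 lower in both Cyp3a-/- livers, against 20.3% and 25.4% of the others.

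Members of the class from 4 to 6 kept more of their difference. These 25 genes had a median of 0.28, against 0.12 for 1394 other features, and 19 had both Cyp3a-/- livers higher, against 40.7% of the others. After quantile scaling their median was 0.14, against -0.0090 for the others, and 14 were higher and 1 lower in both Cyp3a-/- livers, against 20.6% and 23.7%. These are descriptions of genes measured in the same 4 livers, without a test.

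**Figure D2:**
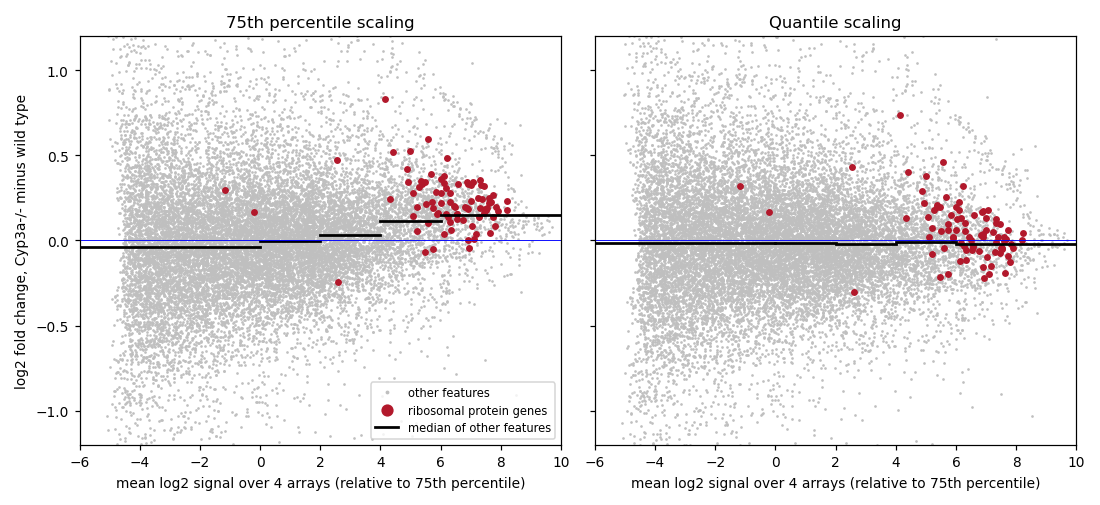
Log2 fold change (y axis, Cyp3a-/- minus wild type, shown from -1.2 to 1.2) against mean log2 signal over 4 arrays (x axis) for all fitted features, at 75th percentile scaling (left) and quantile scaling (right). Black lines are medians of the other features within classes of signal: on the left they climb from -0.040 to 0.15 with signal and the ribosomal protein genes (red) lie around the upper end, and on the right they stay near 0.

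The share of total intensity, taken on a linear scale, differed in the same direction. Its size cannot be set directly beside the fold changes, since bright features weigh most in the total. The 176 member probes together took 5.47% and 5.38% of the summed non-control intensity in the wild type livers and 5.66% and 5.71% in the Cyp3a-/- livers (5.43 ± 0.059% and 5.69 ± 0.035%, SD, n = 2). The Cyp3a-/- livers were the higher pair, without overlap. Cyp3a probes held 0.212% and 0.276% of intensity in the wild type livers. With those probes taken out of the total, the means were 5.44% and 5.69%.

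Proteins of the large subunit had a median log2 fold change of 0.23 (40 of 42 above 0, 31 with both Cyp3a-/- livers higher), and those of the small subunit one of 0.19 (30 of 31 above 0, 24 with both higher). Both Cyp3a-/- livers were higher for 22.5% of all features. That share was 40.7% of other features with a mean signal from 4 to 6 and 48% of those above 6. After quantile scaling the medians were 0.056 and 0.019. Then 15 genes of the large subunit were higher and 7 lower in both Cyp3a-/- livers. For the small subunit these were 6 and 4, and the shares of all features were 19.3% and 23%. The stalk proteins, which recruit the translation factors to the ribosome, are anchored by Rplp0. Its signal was 7.54 and 7.69 in wild type and 7.65 and 7.67 in Cyp3a-/- livers, so the genotypes overlapped (0.042 ± 0.18, SE, adjusted p = 0.952; -0.19 after quantile scaling). Rplp0 is a common reference gene, and its 3 probes gave 0.042 to 0.23. Rplp1, the first of the acidic proteins that Rplp0 carries, stood at 6.99 and 6.79 against 7.12 and 7.35 (0.34 ± 0.19, adjusted p = 0.611). Rplp2, its partner, stood at 7.20 and 7.004 against 7.28 and 7.43 (0.25 ± 0.19, adjusted p = 0.689). Both Cyp3a-/- livers were above both wild type livers for Rplp1 and Rplp2, and quantile scaling left 0.18 and 0.047, with overlap for Rplp2.

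Several ribosomal proteins have roles outside the ribosome. Rpl5 and Rpl11 form a complex that binds the ubiquitin ligase Mdm2 and so stabilises p53 when ribosome assembly is disturbed, and Rpl23 also binds Mdm2. Rpl5 stood at 4.15 and 4.19 in wild type and 4.89 and 4.47 in Cyp3a-/- livers (0.52 ± 0.21, adjusted p = 0.511). Its wild type livers lay close together and both Cyp3a-/- livers lay above them. Rpl11 stood at 7.69 and 7.67 against 7.70 and 7.93 (0.14 ± 0.19, adjusted p = 0.83), with Cyp3a-/- liver 1 at the wild type level and a value of -0.089 after quantile scaling. This was the lowest of its 3 probes, which gave 0.14 to 0.42. On the other probes Cyp3a-/- liver 1 was above both wild type livers. Rpl23 stood at 7.41 and 7.18 against 7.62 and 7.61 (0.32 ± 0.18, adjusted p = 0.614; 0.097 after quantile scaling).

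Among proteins of the small subunit, Rps6 is the classic substrate of the S6 kinases downstream of mTOR. Its signal was 6.52 and 6.43 in wild type and 6.58 and 6.68 in Cyp3a-/- livers (0.16 ± 0.17, adjusted p = 0.79; -0.028 after quantile scaling). Rpsa, a protein of the small subunit also known as the laminin receptor precursor, stood at 7.66 and 7.46 against 7.77 and 7.80 (0.23 ± 0.18, adjusted p = 0.703; 0.0088 after quantile scaling). Rps3, which lies at the mRNA entry site and also has a role in DNA repair, stood at 4.997 and 4.89 against 5.51 and 4.93. Only Cyp3a-/- liver 1 was above the wild type livers (0.28 ± 0.24, adjusted p = 0.731), and without that liver the value was -0.0094.

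The highest fold changes among the members belonged to Rps21, Rpl4, Rps7, Rpl5, Rpl7a and Rps4l. Rps21, a small protein of the small subunit, stood at 3.88 and 3.60 in wild type livers and at 5.24 and 3.90 in Cyp3a-/- livers. Cyp3a-/- liver 1 was far above the rest, and liver 2 was level with wild type liver 1. The fitted log2 fold change was 0.83 ± 0.45 (1.78-fold, adjusted p = 0.595), measured by 1 probe. It was 0.16 without Cyp3a-/- liver 1 (adjusted p = 0.908) and 1.501 without liver 2, where it was the only member called, beside 2.91% of all features (adjusted p = 0.0358, with the lone Cyp3a-/- liver assumed to vary like the wild type livers).

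Rpl4, which lines part of the tunnel through which the new protein leaves, stood at 5.39 and 5.16 against 6.14 and 5.60 (0.60 ± 0.25, adjusted p = 0.512). Rps7 stood at 4.68 and 4.78 against 5.46 and 5.06 (0.53 ± 0.21, adjusted p = 0.499). In both genes the genotypes did not overlap, and Cyp3a-/- liver 1 was the higher of its pair. Rpl7a, a protein of the large subunit, stood at 5.94 and 6.02 against 6.83 and 6.10 (0.48 ± 0.28, adjusted p = 0.617), again mainly by Cyp3a-/- liver 1. Without that liver Rpl7a was at 0.12.

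The lowest values were those of Rps19bp1, Rps15, Rpl18, Rpl8, Rpl14 and Rpl24, and all 6 overlapped between genotypes. Rps19bp1 stood at 2.60 and 2.84 in wild type and 2.28 and 2.67 in Cyp3a-/- livers (-0.24 ± 0.22, adjusted p = 0.735). Rps15, a protein of the head of the small subunit, stood at 5.62 and 5.38 against 5.19 and 5.67 (-0.068 ± 0.24, adjusted p = 0.939), so the Cyp3a-/- livers held both its lowest and its highest value. Rpl18 stood at 5.78 and 5.77 against 5.58 and 5.87 (-0.051 ± 0.19, adjusted p = 0.946). Rpl8, which lies near the peptidyl transferase centre, stood at 6.97 and 6.96 against 6.80 and 7.04 (-0.042 ± 0.19, adjusted p = 0.954). In all 6 genes Cyp3a-/- liver 1 was the lowest array, though for Rpl14 by little. Rpl14 was at 7.04 and 6.80 against 6.78 and 7.06 (0.0023 ± 0.20, adjusted p = 0.999). Rpl24, which reaches across to the small subunit, was at 7.07 and 7.11 against 6.94 and 7.27 (0.010 ± 0.20, adjusted p = 0.991).

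Some members have a paralogue that can differ in tissue distribution. Rpl22l1 stood at 4.89 and 4.45 in wild type and 5.05 and 5.13 in Cyp3a-/- livers (0.42 ± 0.21, adjusted p = 0.587). Its partner Rpl22 stood at 6.17 and 6.23 against 6.43 and 6.42 (0.23 ± 0.17, adjusted p = 0.691). For both, the Cyp3a-/- livers were above the wild type livers without overlap, which after quantile scaling held for Rpl22l1 (0.29) and no longer for Rpl22 (0.056). Rps4l, here matched through a non-coding RefSeq transcript, stood at 2.10 and 2.55 against 2.71 and 2.88 (0.47 ± 0.22, adjusted p = 0.566), and no fitted member differed more between the wild type livers. Rps4x, the copy on the X chromosome, stood at 5.05 and 4.996 against 5.17 and 5.16 (0.14 ± 0.17, adjusted p = 0.803). Rps27l, a known p53 target, stood at 6.25 and 6.44 against 6.54 and 6.54 (0.20 ± 0.18). Rps27 stood at 6.79 and 6.64 against 6.84 and 6.98 (0.20 ± 0.18).

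In the remaining pairs, Rpl36al stood at 5.67 and 5.62 against 5.84 and 5.84, and Rpl36a at 5.18 and 5.22 against 5.54 and 5.53, with fold changes of 0.19 and 0.33. Rpl7l1 stood at -0.35 and -0.22 against -0.093 and -0.13, and Rpl7 at 6.68 and 6.70 against 7.09 and 6.97, with fold changes of 0.17 and 0.34. All 4 genes were higher in both Cyp3a-/- livers, after quantile scaling all but Rpl36al, and none was called. The partners of the undetected paralogues were Rpl3 (0.10 ± 0.21), Rpl10 (0.23 ± 0.17) and Rpl39 (0.39 ± 0.18). Rpl26l1 was matched to no probe here, and Rpl26 had a value of 0.22 ± 0.17. The genome carries many processed copies of ribosomal protein genes, so a probe can also read a near-identical copy, and values of paralogues and of Rpl37rt and Rpl32l are uncertain for that reason.

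Separate probes of a gene mostly gave the same direction. Of 169 kept member probes, 161 had a fold change above 0 and 8 below, with a median of 0.22. Among 51 genes with at least 2 kept probes, all probes were above 0 in 46 and all below in 1, Rpl8. The probes of a gene spanned a median of 0.12, and 33 of the 51 genes spanned less than 0.2. Rpl6 had the widest span, 0.72, because 1 of its 4 probes, at -2.97 and -4.16 in wild type and -3.95 and -3.95 in Cyp3a-/- livers, gave -0.39 while the brighter 3 gave 0.20 to 0.33. That probe also differed by 1.198 between the wild type livers. The 4 probes of Rpl7a gave 0.20 to 0.65, and the pair for Rpl15 gave 0.16 and 0.58.

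Some probes were higher in Cyp3a-/- liver 1 than in liver 2. The difference between the Cyp3a-/- livers exceeded 0.5 in favour of liver 1 for 10 member probes (5.92%, against 12.8% of all kept probes) and in favour of liver 2 for 1 (against 7.88% of all kept probes). The 10 were of Rps21, Rpl7a (2 probes), Rpl17 (2 probes), Rps24, Rps3, Rps3a1, Rpl39 and Rpl4. Both shares were below those of all kept probes, which were not matched for brightness. Except for the Rps3 probe, liver 2 was also above both wild type livers for each of the 10. The margin could be small, as for Rps24 (4.569 against 4.565 in wild type liver 1). In Rpl17 the 2 probes stood at 4.77 and 4.52 against 5.61 and 4.82, and at 3.83 and 3.46 against 4.62 and 3.89. Its brightest probe stood at 5.79 and 5.59 against 5.95 and 6.01, with the Cyp3a-/- livers level. Rps24 and Rps3a1 likewise had 1 probe with a gap of 0.66 and 0.55 between the Cyp3a-/- livers and a brighter probe that differed by -0.13 and -0.098.

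**Figure D3:**
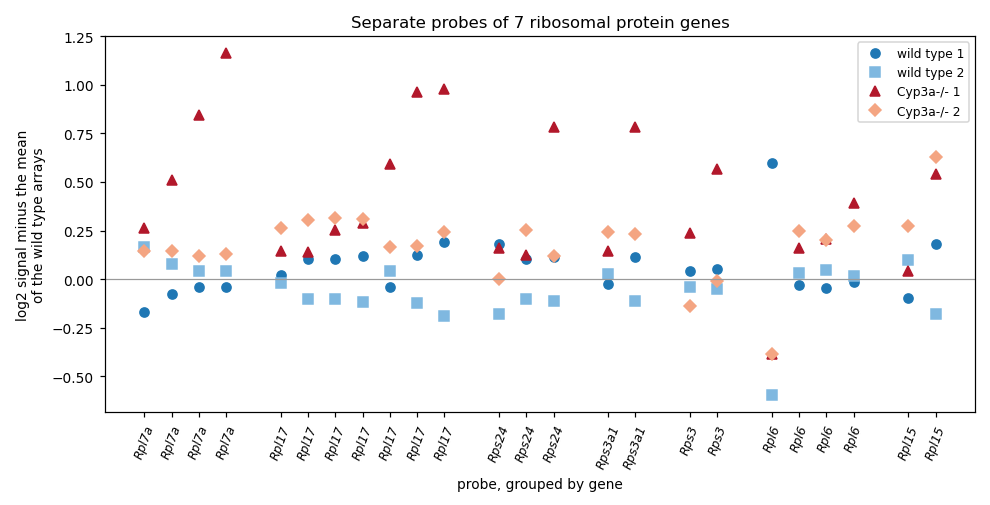
Signal of each kept probe of 7 ribosomal protein genes on each array, as the log2 difference from the mean of the 2 wild type arrays (y axis), 1 column per probe. Within Rpl7a, Rpl17, Rps24 and Rps3a1 some probes have Cyp3a-/- liver 1 alone far above the others while further probes of the gene do not, and 1 dim Rpl6 probe lies at -0.39 in both Cyp3a-/- livers.

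Chromosome 5 carries the Cyp3a cluster and 6 fitted members. Rpl21, a protein of the large subunit, is the nearest, with 15 protein-coding genes between it and Cyp3a59 in the annotation. It stood at 4.73 and 4.79 in wild type and 5.21 and 4.996 in Cyp3a-/- livers (0.35 ± 0.18, adjusted p = 0.594), and its 3 probes gave 0.33 to 0.40. The other 5, Rpl5, Rpl6, Rpl9, Rpl37rt and Rplp0, have at least 228 protein-coding genes between them and the cluster and gave 0.042 to 0.52. The fitted members are spread over 19 chromosomes.

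The start of the mRNA carries the TOP motif, so the promoters of the members were searched for it. A run of at least 5 pyrimidines (C or T) that begins with C, with its first base within 5 bases of the annotated start on the gene's own strand, was found in 31 of 67 members with a promoter in the RefSeq table (46.3%) and in 5718 of all 27025 genes (21.2%). The search did not ask which base precedes the C. A run counted or marked here can therefore be the later part of a longer pyrimidine stretch, as in Rpl7a and Rplp2 below. A further 21 members have no entry. Annotated starts can lie some bases from the true one, so a missing run says only that these letters are not in this window. The following windows, from 15 bases before the start, show genes at both ends of the fold changes, of the stalk, and Rps27 from the middle, to set the start sequence beside the values above. Positions are those of GRCm38.p6, and capitals mark the run.
Rps21 (chr2:180257364-180257393, + strand): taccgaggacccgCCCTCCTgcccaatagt
Rpl7a (chr2:26910792-26910821, + strand): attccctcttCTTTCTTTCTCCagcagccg
Rplp2 (chr7:141447636-141447665, + strand): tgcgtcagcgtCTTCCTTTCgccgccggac
Rps27 (chr3:90213634-90213663, - strand): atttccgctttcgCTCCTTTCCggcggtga
Rpl18 (chr7:45718056-45718085, + strand): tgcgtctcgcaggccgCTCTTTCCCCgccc
Rpl4 (chr9:64173372-64173401, + strand): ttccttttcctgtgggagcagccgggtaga
Rps7 (chr12:28635939-28635968, - strand): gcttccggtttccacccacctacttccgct
Rplp0 (chr5:115559452-115559481, + strand): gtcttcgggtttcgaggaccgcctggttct
Rps15 (chr10:80292416-80292445, + strand): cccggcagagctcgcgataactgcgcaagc

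The run was found in Rps21 and Rpl7a, among the highest fold changes, and in Rpl18, among the lowest. Fold changes did not separate by the run. The 31 fitted members with it had a median of 0.19 (24 with both Cyp3a-/- livers higher) and the 33 without it one of 0.19 (25 with both higher). After quantile scaling the medians were 0.023 and 0.056.

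Related gene groups were set beside the members, and 0 of their genes were called (limma), against 0.276% of all features. At an unadjusted p under 0.05, 0 genes of the translation factor and mitochondrial lists differed, and 2 of the biogenesis, 1 of the mTOR and MYC and 1 of the p53 list, named below. Of all features, 4.6% were higher and 5.42% lower at that threshold. Over all features, 51.4% had a fold change above 0, and both Cyp3a-/- livers were higher for 22.5% and lower for 20.2%. Translation factors and other products of TOP mRNAs had a median of 0.13 over 25 measured of 26, with 19 above 0, 13 higher and 1 lower in both Cyp3a-/- livers. After quantile scaling their median was 0.055, with 7 higher and 4 lower (19.3% and 23% of all features). Within this list, Tpt1, a growth-related TOP mRNA, stood at 8.27 and 8.12 against 8.40 and 8.61 (0.31 ± 0.19, adjusted p = 0.63). Rack1, a scaffold on the small subunit, stood at 7.32 and 7.35 against 7.60 and 7.58 (0.25 ± 0.17, adjusted p = 0.662). Fau, which encodes a ribosomal protein fused to a ubiquitin-like protein, had a value of 0.016 ± 0.21. Mitochondrial ribosomal proteins, which serve the separate ribosome of that organelle, had a median of 0.084 over 77 genes, with 55 above 0, 26 higher and 3 lower in both Cyp3a-/- livers. After quantile scaling their median was 0.027, with 14 higher and 14 lower.

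The factors that assemble the ribosome, the ribosome biogenesis list, had a median of -0.028 over 53 genes, with 23 above 0. Both Cyp3a-/- livers were higher for 8 and lower for 8, against 22.5% and 20.2% of all features. After quantile scaling the median was -0.062, with 6 higher and 12 lower (19.3% and 23% of all features). At an unadjusted p under 0.05, 1 was higher (Ubtf, a factor of RNA polymerase I transcription, 0.44 ± 0.17) and 1 was lower (Riok1, a kinase of late small subunit assembly, -0.46 ± 0.18). Their adjusted p values were 0.498 and 0.488. Genes of mTOR, MYC and the control of TOP mRNAs had a median of -0.063 over 22 genes, with 10 above 0. Myc, a transcription factor known to drive ribosome synthesis, stood at -3.31 and -2.87 in wild type and -1.71 and -1.58 in Cyp3a-/- livers (1.44 ± 0.22, adjusted p = 0.137). Genes of nucleolar stress and p53 had a median of 0.0055 over 13 measured of 14. Phlda3, a p53 target, stood at -1.86 and -1.63 against -2.97 and -2.72 (-1.10 ± 0.20, adjusted p = 0.203). Under median scaling Myc (1.47, adjusted p = 0.000301), Phlda3 (-1.07, adjusted p = 0.0261) and Cdkn1a (-1.04, adjusted p = 0.0337) were called, with 3.79% of all features. Cdkn1a, a cell cycle inhibitor and p53 target, stood at -2.77 and -1.12 in wild type and -3.08 and -2.94 in Cyp3a-/- livers at 75th percentile scaling (-1.07 ± 0.53, adjusted p = 0.581), with wild type liver 2 far above the rest, and without that liver the value was -0.24.

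**Figure D4:**
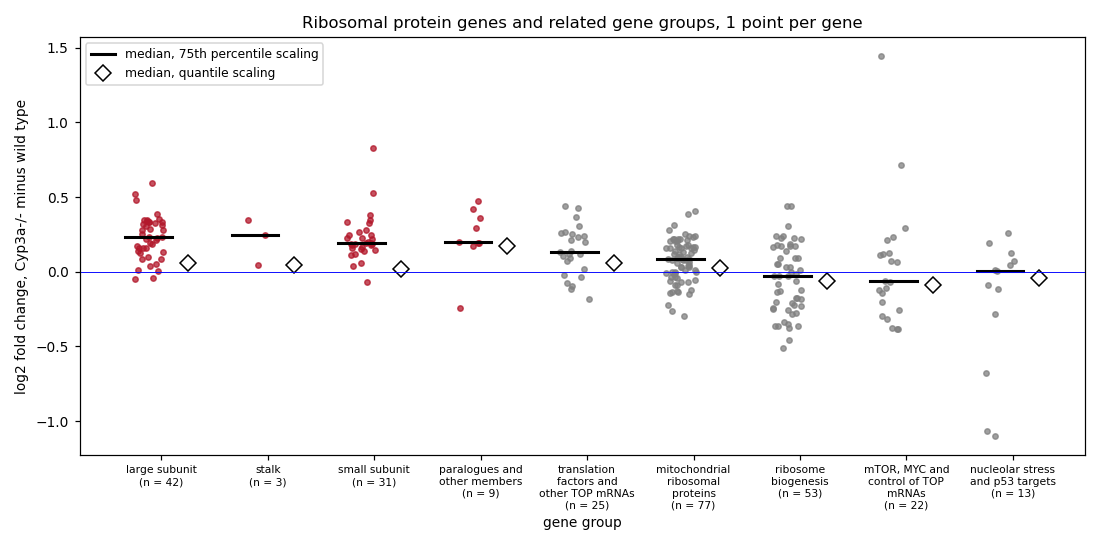
Log2 fold changes (y axis, Cyp3a-/- minus wild type at 75th percentile scaling) of ribosomal protein genes by subunit (red) and of related gene groups (grey), 1 point per gene with n under each group. Bars are medians at 75th percentile scaling and diamonds are medians after quantile scaling: the large and small subunit have bars at 0.23 and 0.19 and diamonds at 0.056 and 0.019, and ribosome biogenesis lies at -0.028 and -0.062.

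Markers of dividing cells and of other cell types also varied from liver to liver, and their part in the values of the members was not tested. None of these markers was called (limma). The summed signals of lymphocyte, sinusoidal endothelial, cholangiocyte and neutrophil markers overlapped between the genotypes. Cell cycle genes had a median of -0.80 over 14 measured of 15, with 0 called and 6 lower at an unadjusted p under 0.05 (5.42% of all features), and wild type liver 2 was the highest array for 12 of the 14. Summed linear signals of the 3 erythroid markers that were kept (Hba-a1, Alas2 and Slc4a1) were 64.9 and 76.2 in wild type and 32.8 and 55.2 in Cyp3a-/- livers. The markers did not move alike. Hba-a1, the brightest, had a log2 fold change of -1.08, Alas2 one of 0.0071 with overlapping genotypes, and the dim Slc4a1 one of -0.29. Lymphocyte markers (9 of 11, with Cd8a and Cd79a not kept) summed to 11.2 to 17.6 in wild type and 14.9 to 18.1 in Cyp3a-/- livers, and macrophage markers (8 of 8) to 57.4 to 59.1 and 46.7 to 51.5. Stellate markers (8 of 8) summed to 40.9 to 45.1 and 37.2 to 40.3, sinusoidal endothelial markers (7 of 7) to 30.1 to 39.8 and 32.5 to 35.6, cholangiocyte markers (5 of 6, without Epcam) to 0.954 to 1.51 and 1.05 to 1.25, and neutrophil markers (3 of 6, without Ly6g, Mpo and Retnlg) to 1.54 to 2.19 and 1.66 to 2.29.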

How the data were processed

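For each array the authors deposited a scanner file with an intensity per spot. The submitters' processing notes name Agilent Feature Extraction 11.5.1.1. Per the file headers, the processed intensity is background-subtracted, and arrays were not normalized to each other. Deposited flag columns (other values, 0 or 1) mark spots well above background, saturated or deviating. A log2 table that the authors deposited states neither scale nor centring. It matched log2 intensity after 75th percentile scaling with the median of each probe subtracted (39417 probes, column medians -0.073 to 0.06), so scale, centring and direction are inferred.

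Control spots and 113 to 148 deviating spots per array were left out. Log2 intensities were scaled by the 75th percentile, and spots of a probe were averaged. Probes were kept where both arrays of 1 genotype, or of both, were well above background (21508), and each gene took the brightest of its kept probes (17406 features). Probes were named through RefSeq accessions without version, from a GRCm38.p6 table (28025 with 1 symbol, 11404 with none or several). The array's design build is older, so coordinates are given for RefSeq promoters only. The test was limma 3.58.1 under R 4.3.3 (lmFit, eBayes, 2-sided, Benjamini-Hochberg over all features, threshold 0.05), with 2 residual and 3.54 prior degrees of freedom. P-values measure the spread between these livers, the wild type pair sharing a slide. The number of arrays limits the precision. The procedure was tested on simulated data.

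The members, gene lists and tests were chosen with earlier results of these data known. Named members are the 6 highest and 6 lowest fold changes, those with an unadjusted p under 0.05, members with known extra roles, paralogue pairs, and those with the widest spread between arrays or probes. Rpl21, the fitted genes of other lists and the probes high in 1 liver were named after their values were seen. Alternatives covered the scaling, background, filter, probe summary, variance trend, the authors' table, blocks and each array left out. The planned normexp correction used the median pixel intensity, since the mean is not in the columns used here. The labels do not say that a replicate number marks an experiment, so no block was used.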

Additional observations from a re-analysis of the deposited data

How the results depend on the processing

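No member was called under any alternative except 1 (Rps21, log2 fold change 1.501) without Cyp3a-/- liver 2, where 506 features (2.91%) were called. Over the arrays left out in turn, the count of members called was 0 to 1 and the member median 0.18 to 0.25. Quantile scaling gave a member median of 0.037 and a median minus that of all features of 0.053. Median scaling gave a member median of 0.24 and called 1 mTOR and MYC gene and 2 p53 genes, with a prior so tight (659 features called in all) that every gene received the same standard error. Signs turned under quantile scaling for 27 of 85 members, among the genes named for their values or roles for Rpl14 (-0.15), Rpl24 (-0.20), Rplp0 (-0.19), Rps6 (-0.028), Rpl11 (-0.089) and Rpl3 (-0.041). For Rpl14 they also turned with normexp (-0.055) and with the mean of all kept probes (-0.012). The cause was not tested. Arrays left out in turn gave -0.31 to 0.17 for Rps15, -0.15 to 0.17 for Rpl24, -0.036 to 0.12 for Rplp0, -0.14 to 0.14 for Rpl14, -0.19 to 0.092 for Rpl18, -0.16 to 0.080 for Rpl8, -0.0094 to 0.57 for Rps3 and -0.095 to 0.30 for Rpl3. Same-numbered arrays did not deviate together (correlation -0.102). The replicate block called 0 members (58 features in all), as did the crossed replicate block (56 features) and a slide block (21 features), both added after seeing the data. The slide block took a preset correlation of 0.5, since none could be estimated from 4 arrays. With a variance trend, 0 members were called and 17 were higher at an unadjusted p under 0.05, against 5.79% of all features. Over all settings, features called ranged from 7 to 659, against 48 as reported. Only 2 livers per genotype limit what could be called.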
